A study of Mus musculus with 12 samples.

Results

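The 36 genes described here are those of glycolysis, lactate handling and the cellular response to low oxygen. They were listed by name, matched to the deposited transcripts by identifier, and make up 36 of the 25514 genes in the files. Of these, 35 were among the 12971 genes with enough counts to be tested, and carbonic anhydrase 9 (Car9) was not. RNA was sequenced from conditionally immortalized mouse proximal tubule (PT) cells, with 3 libraries in each of 4 groups and 12 in all. Every group carried the H2ts6 transgene, a temperature-sensitive T antigen that lets the cells divide in interferon gamma, and every group was grown at 33 °C in medium with 2.5% serum and moved to 37 °C 5 days before the experiment. The controls, TβRII flox/flox PT cells, had both alleles of Tgfbr2, the gene of the TGF-β type II receptor, flanked by loxP sites. TβRII-/- PT cells had lost Tgfbr2 through adenoviral Cre added in culture, so the genotypes are cultures separated by that treatment. Whether each was 1 clone or a pool is not given in the sources used here. Each genotype was left untreated in culture medium or exposed to H2O2 in serum-free medium for 24 h. By the study's methods, serum had already been withdrawn 24 h ahead of that exposure. H2O2 and the loss of serum thus cannot be told apart. The labels give the H2O2 dose as 200 mM and the study's methods give 200 μM. The age of the animals the cells came from is not given in the sources used here.

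Glycolysis splits glucose into pyruvate in the cytosol and yields ATP without oxygen. Lactate dehydrogenase turns pyruvate into lactate, monocarboxylate transporters carry lactate across the membrane, and pyruvate dehydrogenase kinases hold pyruvate back from the mitochondria. Hypoxia-inducible factors (HIF) are transcription factors whose α subunits are marked for destruction by oxygen-dependent prolyl hydroxylases, and many glycolytic genes are among their targets. In the kidney the proximal tubule burns mainly fatty acids and makes rather than consumes glucose, and PT cells put into culture turn towards glycolysis.

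All values are normalized read counts, that is, the reads counted on the transcript that stands for a gene, scaled to a library of 17351835 counts. Library totals at the gene level were between 15870155 and 20857618 counts. Tgfbr2, the check of the labels, was counted in all libraries, at 9248, 8369 and 7562 in untreated TβRII flox/flox and 6782, 6675 and 6358 in untreated TβRII-/- PT cells, and at 13275, 13918 and 13706 and 7221, 7311 and 7116 with H2O2. It was lower in every TβRII-/- library than in every control library, but whole transcripts were counted and reads on the exons between the loxP sites were not separated, so the deletion itself is not measured here. Of 11 proximal tubule markers 6 were counted highly enough to be tested, while Slc34a1, Slc22a6, Slc22a8, Hnf4a and Miox had at most 3 counts in every library. The summed level of the proximal tubule markers was 22028 to 28010 in untreated TβRII flox/flox and 15056 to 16088 in untreated TβRII-/- PT cells, and 30896 to 33756 and 15866 to 17247 with H2O2. Lrp2 and Aqp1 made up nearly all of this sum. In the controls Aqp1 was at 6217 to 7703 untreated and 14396 to 14783 with H2O2. Lrp2 overlapped there, at 15563 to 20339 and 16332 to 18780, and Ggt1 was lower with H2O2, at 60.2 to 90.5 and 18.3 to 26.9. The sum of 6 pan-epithelial markers ran the other way between the genotypes, at 13028 to 13414 and 21476 to 21921 untreated, and 10861 to 11115 and 20510.1 to 21462 with H2O2. Its members moved unequally: Epcam was at 0 to 1.11 in untreated TβRII flox/flox and 621 to 729 in untreated TβRII-/- libraries, Cdh1 (E-cadherin) at 1.05 to 3.23 and 1046 to 1171, and Pax2 at 4586 to 5391 and 4510.3 to 4946. Epcam and Cdh1 stayed at no more than 12.4 in the controls with H2O2, where TβRII-/- libraries had 831 to 1011 and 1616 to 1768. Markers of 4 endothelial genes summed to 125 to 138 and 459.9 to 584 untreated and to 20.7 to 23.3 and 38.5 to 63.6 with H2O2, with Pecam1 and Emcn at no more than 3 counts in every library. Nearly all of this sum was Kdr, at 124 to 133 and 458.9 to 584 untreated and 20.7 to 22.3 and 38.5 to 59.7 with H2O2. Cdh5 was at 1.08 to 4.21 in untreated controls and at 0 in untreated TβRII-/- libraries. The 7 fibroblast markers summed to at most 96.3, the 4 immune markers to at most 273, 4 distal nephron markers to at most 10.9 and 2 podocyte markers to at most 2.77 in any library. The immune sum was nearly all Cd68, at 127 to 142 in untreated TβRII flox/flox and 225 to 247 in untreated TβRII-/- PT cells. With H2O2 Cd68 was at 138 to 146 and 222 to 271. The part of these shifts in the differences below was not tested, and in RNA pooled over cells, fewer cells of a type and less RNA per cell cannot be told apart.

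**Figure D1:**
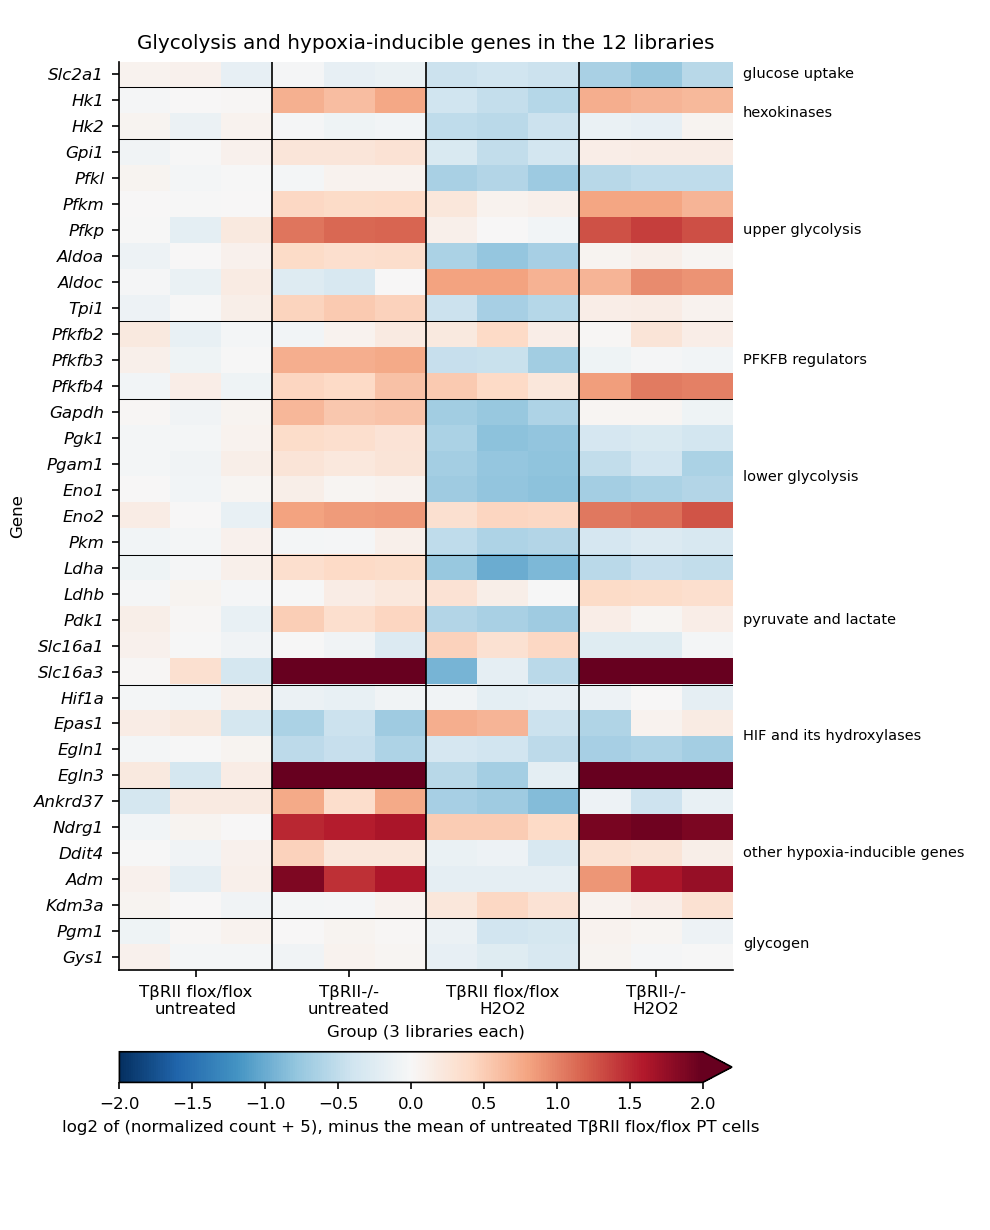
Each column is 1 of the 12 libraries and each row 1 of the 35 tested genes, in groups by role; the colour gives log2 of the normalized count plus 5, minus the mean of the untreated controls, and the darkest red marks values at or above 2. Slc16a3, Egln3, Ndrg1 and Adm are red in all 6 TβRII-/- libraries, and most glycolytic enzymes are blue in the 3 H2O2 libraries of the controls.

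Untreated TβRII-/- PT cells had more RNA for most steps of glycolysis and far more for a few hypoxia-inducible genes than the untreated controls. The lactate exporter Slc16a3 was 22.2-fold and the HIF prolyl hydroxylase Egln3 19.0-fold higher, and the enzymes Pfkp, Eno2, Hk1 and Gapdh were between 1.51-fold and 2.19-fold higher. The hydroxylase Egln1 was lower, and the transcripts of the HIF α subunits, Hif1a and Epas1, did not pass the test. Of the 35 tested genes, 20 were higher and 1 was lower (quasi-likelihood test of edgeR, with a Benjamini-Hochberg adjusted p under 0.05). That is 60.0% of the 35, beside 64.7% of all genes tested (33.3% higher and 31.4% lower), so the share that changed was no larger than the background while the direction was nearly all one way. The median log2 fold change of the 35 genes was 0.31, and that of all genes tested was 0.01. At an unadjusted p under 0.01 together with a fold change of at least 1.5, 10 of the 35 genes were higher and 0 lower, beside 27.0% of all genes (15.7% and 11.3%). In what follows, each fold change on the log2 scale is followed by its standard error (SE), and every adjusted p is edgeR's over all genes tested.

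The largest differences were in Slc16a3, Egln3, Ndrg1 and Adm. Slc16a3 (chr11:120948484-120959000, coordinates on GRCm38.p6 throughout) encodes MCT4, the monocarboxylate transporter that exports lactate from glycolytic cells. Its normalized counts were 12.6, 16.7 and 8.60 in untreated TβRII flox/flox and 311, 289 and 248 in untreated TβRII-/- PT cells. The groups were far apart, with a 22.2-fold higher level in TβRII-/- PT cells (log2 fold change 4.47 ± 0.21, adjusted p = 7.08e-19). Egln3 (chr12:54178981-54203874) encodes PHD3, a HIF prolyl hydroxylase that is itself induced by HIF. It was counted at 13.7, 7.79 and 12.9 in TβRII flox/flox and at 234, 206 and 221 in TβRII-/- PT cells. This was a 19.0-fold difference without overlap (log2 4.24 ± 0.20, adjusted p = 1.03e-18). Ndrg1 (chr15:66929318-66969641), a stress-responsive gene induced in hypoxia, had 1069.9, 1158 and 1119.5 normalized counts in TβRII flox/flox and 3171, 3308 and 3467 in TβRII-/- PT cells. It was 2.97-fold higher (log2 1.57 ± 0.06, adjusted p = 6.38e-21), and the 504 tested genes of its chromosome, 15, had a median log2 fold change of 0.36. Adm (chr7:110627657-110629820), the precursor of the vasodilator peptide adrenomedullin, was at 1.05, 0 and 1.08 normalized counts in TβRII flox/flox and at 15.7, 10.6 and 12.4 in TβRII-/- PT cells. The groups did not overlap (edgeR adjusted p = 4.07e-05), and from 39 reads beside 2 the ratio of the groups was 17.9, with an exact 95% binomial interval for counting error alone of 4.62 to 153.

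**Figure D2:**
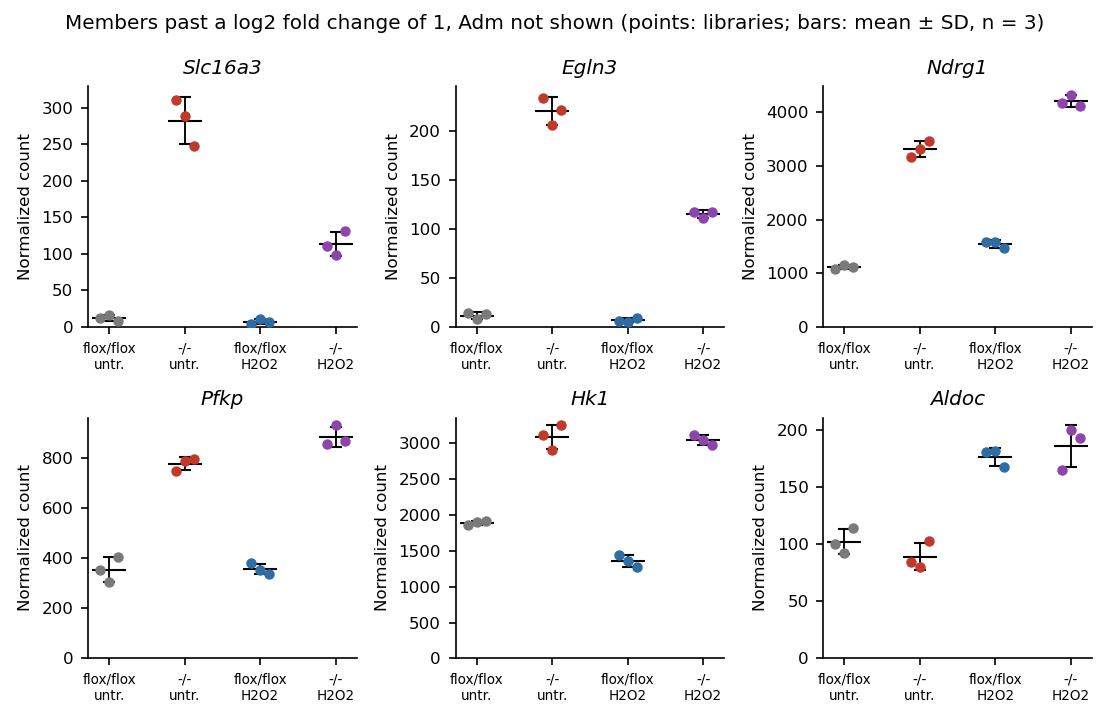
Normalized counts (y axes, linear and starting at 0) of 6 genes in the 4 groups; points are libraries, and black lines give the mean and SD (n = 3). Slc16a3 runs from 4.06 to 16.7 in the control libraries and from 98.3 to 311 in the TβRII-/- libraries, and Aldoc lies higher in every H2O2 library than in every untreated one.

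Windows of 250 bases before a transcription start were available from RefSeq (GRCm38.p6) for 34 of the 36 genes, 51 windows in all. Ndrg1 and Epas1 had none. The core of the hypoxia response element, to which HIF binds, is ACGTG or GCGTG, and both were searched on both strands, with a palindromic CACGTG counted once on each strand. ACGTG was in 45.1% of the 51 windows and in 16.6% of all 32851 windows of that length, and GCGTG in 51.0% and 28.2%. By gene, 19 of 34 genes (55.9%) had ACGTG in at least 1 window, beside 18.5% of all genes. The 34 genes had 51 windows and the 27025 genes of the background 32851, so the windows per gene were unequal. The list was named for glycolytic and hypoxia-inducible genes, many of them HIF targets, so these shares describe the list and are not a result of these libraries. The first 3 windows shown are of 3 of the 4 genes that differed most between genotypes, and the last 2 are of glycolytic genes that were lower with H2O2 in both genotypes. They run 5′ to 3′ on the gene's strand, with each core in capitals. They lie at chr11:120948817-120949066 (plus strand, inside the annotated span of Slc16a3), chr12:54203875-54204124 (minus strand, next to the start of Egln3), chr7:110627407-110627656 (plus strand), chr7:46845554-46845803 (plus strand, the first of 2 windows, inside the annotated span of Ldha) and chrX:106186850-106187099 (plus strand).
Slc16a3: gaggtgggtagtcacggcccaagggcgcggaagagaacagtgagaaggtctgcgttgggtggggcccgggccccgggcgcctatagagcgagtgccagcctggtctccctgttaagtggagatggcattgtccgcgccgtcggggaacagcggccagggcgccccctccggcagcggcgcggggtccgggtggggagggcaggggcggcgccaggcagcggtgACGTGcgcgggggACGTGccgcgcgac
Egln3: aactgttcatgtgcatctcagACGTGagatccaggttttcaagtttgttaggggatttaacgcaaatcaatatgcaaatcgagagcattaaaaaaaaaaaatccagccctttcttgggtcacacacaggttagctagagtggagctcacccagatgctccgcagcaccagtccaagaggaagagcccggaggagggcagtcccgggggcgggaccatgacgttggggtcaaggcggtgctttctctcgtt
Adm: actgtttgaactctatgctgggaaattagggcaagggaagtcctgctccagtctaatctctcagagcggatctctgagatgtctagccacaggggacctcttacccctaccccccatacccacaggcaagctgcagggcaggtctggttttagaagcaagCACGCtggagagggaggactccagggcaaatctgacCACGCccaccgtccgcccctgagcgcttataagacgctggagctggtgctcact
Ldha: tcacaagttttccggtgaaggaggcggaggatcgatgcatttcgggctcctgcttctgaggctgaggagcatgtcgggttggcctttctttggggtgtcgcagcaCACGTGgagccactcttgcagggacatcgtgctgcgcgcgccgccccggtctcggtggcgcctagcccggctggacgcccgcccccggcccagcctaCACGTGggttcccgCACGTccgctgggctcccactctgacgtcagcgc
Pgk1: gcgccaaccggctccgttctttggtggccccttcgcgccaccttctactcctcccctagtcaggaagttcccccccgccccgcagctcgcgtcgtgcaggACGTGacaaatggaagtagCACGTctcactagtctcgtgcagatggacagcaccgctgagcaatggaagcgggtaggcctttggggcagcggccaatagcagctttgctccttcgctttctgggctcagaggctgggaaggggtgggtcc
Slc16a3 and Pgk1 each held 2 ACGTG cores, Egln3 held 1, Adm held 2 GCGTG cores, and the Ldha window held 5 ACGTG cores when both strands of its palindromes are counted. Eno2, Gpi1, Gys1 and Tpi1 had neither core in their windows. These matches are letters in a window and not measured binding.

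The gene of the main glucose transporter did not pass the test between the untreated genotypes. Slc2a1, the main basal glucose transporter (GLUT1), had a log2 fold change of -0.11 ± 0.07, adjusted p = 0.128 in edgeR, and its groups overlapped. Without replicate 3 of untreated controls, edgeR's adjusted p became 0.00485, with Slc2a1 lower in TβRII-/- PT cells. Of the hexokinases, which trap glucose as glucose 6-phosphate, Hk1 was higher and Hk2 did not pass the test. Hk1 (chr10:62268855-62379920) was at 1859, 1902 and 1917 in TβRII flox/flox and at 3112, 2912 and 3252 in TβRII-/- PT cells, 1.63-fold higher (log2 0.71 ± 0.06, adjusted p = 3.88e-12, edgeR). All 3 TβRII-/- libraries were above the highest control. Hk2, the inducible hexokinase, was at 614 ± 45.5 and 590.0 ± 12.7 (SD, n = 3; log2 -0.06 ± 0.07, adjusted p = 0.502, edgeR).

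Of the 7 genes of upper glycolysis 5 were higher and 0 lower in untreated TβRII-/- PT cells. By role, 71.4% of upper glycolysis, 66.7% of lower glycolysis, 60.0% of the pyruvate branch and 80.0% of the other hypoxia-inducible genes tested were called. Of all genes tested 64.7% were. Among the 3 phosphofructokinases, which catalyse the committed step, the platelet and muscle forms passed the test. Pfkp (chr13:6579874-6649060) was at 352, 307 and 407 in TβRII flox/flox and at 749, 790.0 and 796 in TβRII-/- PT cells. It was 2.19-fold higher, with no overlap (log2 1.13 ± 0.08, adjusted p = 1.12e-13, edgeR). Pfkm was higher by a log2 fold change of 0.40 ± 0.06, close to the median of 0.36 of its chromosome, 15, and the liver form Pfkl had 0.03 ± 0.06 (95% interval -0.09 to 0.15). Glucose phosphate isomerase (Gpi1, log2 0.26 ± 0.06), the main aldolase (Aldoa, log2 0.36 ± 0.06) and triosephosphate isomerase (Tpi1, log2 0.47 ± 0.07) were higher. Aldoc, the brain-type aldolase, had a log2 fold change of -0.19 ± 0.15, adjusted p = 0.244 (edgeR).

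The PFKFB enzymes make and remove fructose 2,6-bisphosphate, the strongest activator of phosphofructokinase. Pfkfb3, the form with the highest kinase activity, was at 499 ± 33.7 in TβRII flox/flox and 833 ± 10.3 in TβRII-/- PT cells (SD, n = 3), 1.67-fold higher (log2 0.74 ± 0.07, adjusted p = 1.98e-10, edgeR). The 1006 tested genes of its chromosome, 2, had a median of 0.31. Pfkfb4 was also higher (log2 0.50 ± 0.15, adjusted p = 0.00426, edgeR). Pfkfb2, counted here on a transcript annotated for nonsense-mediated decay, had 0.06 ± 0.10.

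In lower glycolysis 4 of 6 genes were higher and 0 lower. Enolase 2 (Eno2, the neuron-type form) differed most, with 809 ± 82.1 normalized counts in TβRII flox/flox and 1448 ± 29.7 in TβRII-/- PT cells (SD, n = 3; log2 0.84 ± 0.07, adjusted p = 3.08e-12, edgeR), while the main form Eno1 had 0.08 ± 0.06 (95% interval -0.03 to 0.19). Gapdh was 1.51-fold higher (log2 0.59 ± 0.06), but the transcript with most counts for this gene is annotated as a retained intron. Phosphoglycerate kinase 1 (Pgk1, log2 0.33 ± 0.07) and phosphoglycerate mutase 1 (Pgam1, log2 0.24 ± 0.07) were higher by less. The 469 tested genes of the chromosome of Pgam1, 19, had a median of 0.13. Pyruvate kinase (Pkm), the last step, had 0.01 ± 0.07, with its M1 and M2 forms not separated. Gapdh, Pgk1, Eno1, Pkm, Ldha, Tpi1, Pgam1 and Aldoa have near-identical pseudogenes, and their counts are uncertain to the extent that reads were shared with them.

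At the pyruvate branch 3 of 5 genes were higher and 0 lower. Ldha, the form of lactate dehydrogenase that favours lactate, was at 5568 ± 395 and 7144 ± 156 (SD, n = 3; log2 0.36 ± 0.06, adjusted p = 1.15e-05, edgeR). Ldhb had 0.12 ± 0.07, adjusted p = 0.113 in edgeR, and an adjusted p of 0.032 without replicate 1 of untreated TβRII-/- PT cells. Pdk1, a kinase that switches off pyruvate dehydrogenase, was higher by 0.42 ± 0.10, beside the median of 0.31 of its chromosome, 2. Slc16a1, which encodes the widespread transporter MCT1, had -0.11 ± 0.07, adjusted p = 0.16 in edgeR and an adjusted p of 0.0478 without replicate 3 of untreated controls. With Slc2a1 and Slc16a1 both past the threshold without that library, 3 genes were lower in place of 1. Slc16a3, described above, was the third higher gene of this branch.

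Neither HIF α subunit passed the test. Hif1a, the ubiquitous subunit, was at 3049.8, 3000.1 and 3353 in untreated TβRII flox/flox and at 2886, 2817 and 2994 in untreated TβRII-/- PT cells. The TβRII-/- libraries were slightly lower without overlap, and the difference did not pass the test (log2 -0.11 ± 0.06, adjusted p = 0.111, edgeR). Epas1, which encodes HIF-2α, was near the limit of counting, at 12.6, 13.4 and 7.53 and 5.23, 6.78 and 4.79 (log2 -0.98 ± 0.52, adjusted p = 0.0962, edgeR). Egln1 (PHD2), the main oxygen-sensing hydroxylase, was the single gene that was lower, at 1652, 1678 and 1752 in TβRII flox/flox and 1175, 1235 and 1102 in TβRII-/- PT cells (log2 -0.53 ± 0.06, adjusted p = 6.39e-09, edgeR). Egln1 and Egln3 differed in opposite directions between the genotypes, and HIF protein was not measured in these files.

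Of the 6 other hypoxia-inducible genes, 4 were higher, 1 was not past the test and Car9 was not tested. Besides Ndrg1 and Adm these were Ddit4, an inhibitor of mTORC1 (log2 0.31 ± 0.08, adjusted p = 0.000903, edgeR), and Ankrd37, an ankyrin-repeat protein, at 27.4 ± 6.46 in the controls and 44.6 ± 7.60 in TβRII-/- PT cells (SD, n = 3; log2 0.70 ± 0.25, adjusted p = 0.0149, edgeR). The call for Ankrd37 was lost in DESeq2, with an adjusted p of 0.0527. It was also lost in edgeR without replicate 1 of TβRII flox/flox (adjusted p = 0.11) and without replicates 1 or 3 of TβRII-/- PT cells (adjusted p = 0.0547 and 0.0584). Kdm3a, a histone demethylase induced by HIF, had 0.0048 ± 0.07 (95% interval -0.12 to 0.13). Car9, a cell surface enzyme used as a marker of hypoxia, was at 4.21, 3.34 and 2.15 in untreated controls and at 0 in all 3 untreated TβRII-/- libraries, levels too low for a fold change. Fits that kept it (DESeq2, no filter on low counts, and transcripts summed) called Car9 lower in TβRII-/- PT cells. The glycogen genes Pgm1 (phosphoglucomutase) and Gys1 (glycogen synthase) had 0.02 ± 0.07 and 0.01 ± 0.07.

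**Figure D3:**
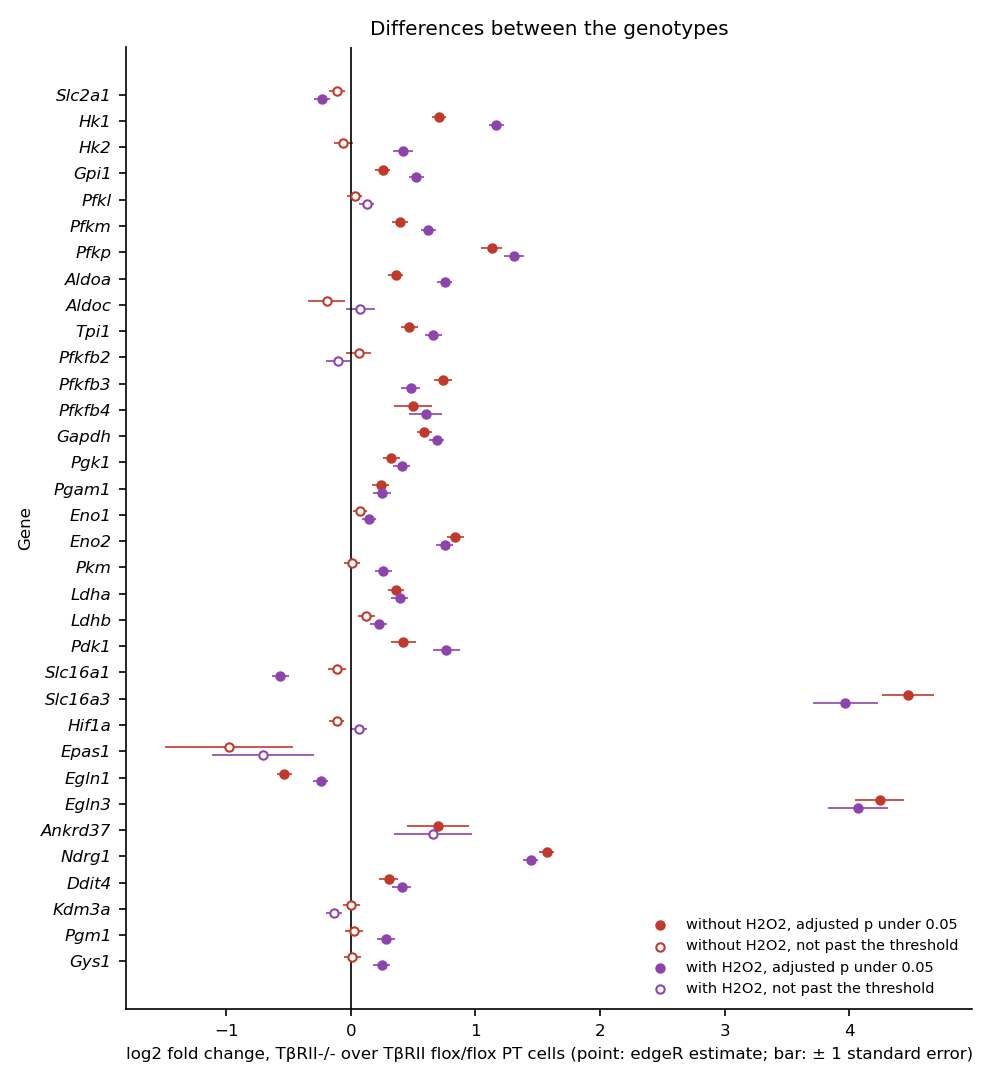
log2 fold change of TβRII-/- over TβRII flox/flox PT cells (x axis) for 34 genes (rows) without H2O2 (red) and with H2O2 (purple); points are edgeR estimates, bars are ± 1 SE, and open points did not pass an adjusted p of 0.05. Adm is left out because its controls had at most 3 counts. Slc16a3 and Egln3 stand at or above 3.97 in both comparisons, and Slc2a1, Slc16a1 and Egln1 lie left of 0 in both.

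With H2O2 in serum-free medium, TβRII-/- PT cells had more RNA for nearly every step from hexokinase to lactate dehydrogenase than TβRII flox/flox PT cells under the same treatment. Hk1 was 2.25-fold, Pfkp 2.48-fold and Slc16a3 15.7-fold higher, while the transporters Slc2a1 and Slc16a1 and the hydroxylase Egln1 were lower. TβRII-/- PT cells had higher levels of 25 of the 35 genes and lower levels of 3, which is 80.0% beside 66.4% of all genes tested (35.1% higher and 31.3% lower, edgeR, adjusted p under 0.05). The median log2 fold change was 0.41, also with Adm at its lower bound, beside 0.02 for all genes. With the fold limit of 1.5 and an unadjusted p under 0.01, 13 genes were higher and 0 lower, beside 29.8% of all genes (16.9% and 12.9%). Without replicate 3 of TβRII flox/flox PT cells with H2O2, 5 genes were lower, and Epas1 (edgeR adjusted p = 0.0203) and Kdm3a (adjusted p = 0.0364) were the 2 added.

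The same 4 genes had the largest differences. Slc16a3 was at 4.06, 10.3 and 6.88 in TβRII flox/flox and at 111, 98.3 and 131 in TβRII-/- PT cells with H2O2 (15.7-fold, log2 3.97 ± 0.26, adjusted p = 9.06e-15, edgeR). Egln3 was at 6.09, 5.16 and 9.17 and 117, 111 and 117 (16.8-fold, log2 4.07 ± 0.24, adjusted p = 5.09e-16, edgeR). Neither gene had overlapping groups. Ndrg1 was at 1583, 1585 and 1468 and 4173, 4326 and 4107 (2.72-fold, log2 1.44 ± 0.06, adjusted p = 3.02e-20, edgeR), with a median of 0.39 over chromosome 15. Adm had no count in any TβRII flox/flox library with H2O2 and 5.54, 12.6 and 13.9 normalized counts in TβRII-/- PT cells, at least 3.56-fold higher against 3 normalized counts per library (edgeR adjusted p = 1.12e-05). Car9 was at 2.03, 1.03 and 2.29 and 1.85, 0.786 and 1.99, too low to compare.

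Every gene of lower glycolysis and both hexokinases were higher in TβRII-/- PT cells with H2O2, where 35.1% of all genes tested were. Hk1 was at 1439, 1354 and 1272 in TβRII flox/flox and 3120.0, 3047 and 2972 in TβRII-/- PT cells (2.25-fold, log2 1.17 ± 0.06, adjusted p = 1.68e-17, edgeR). Hk2, without a call between the untreated genotypes, was at 429, 420.4 and 453 and 561, 548 and 635 (log2 0.42 ± 0.08, adjusted p = 1.68e-05, edgeR). In lower glycolysis the log2 fold changes ran from 0.14 ± 0.06 for Eno1 to 0.75 ± 0.07 for Eno2, with Gapdh at 0.69 ± 0.06 and Pkm at 0.26 ± 0.07. The call for Eno1 was weak. Its edgeR adjusted p of 0.0284 rose to between 0.0578 and 0.266 in 10 of the 21 alternatives, namely without any 1 of the 6 TβRII flox/flox libraries, without replicate 2 or 3 of TβRII-/- PT cells with H2O2, and in both fits that used transcripts otherwise (summed over a gene, or each as a feature).

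In upper glycolysis 5 of 7 genes were higher and 0 lower with H2O2, where 35.1% and 31.3% of all genes were. Pfkp was at 380.5, 353 and 339 and 858, 932 and 869 (2.48-fold, log2 1.31 ± 0.08, adjusted p = 1.61e-15, edgeR). Aldoa (1.69-fold, log2 0.75 ± 0.06), Tpi1 (1.58-fold, log2 0.66 ± 0.07), Pfkm (log2 0.62 ± 0.06, chromosome median 0.39) and Gpi1 (log2 0.53 ± 0.06) were the others. Outside the calls, Pfkl had 0.13 ± 0.06, Aldoc 0.08 ± 0.12 with overlapping groups, and Pfkfb2 -0.11 ± 0.10. Pfkfb3 (log2 0.48 ± 0.08, chromosome median 0.31) and Pfkfb4 (log2 0.60 ± 0.13) were also higher.

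At the pyruvate branch 4 genes were higher and 1 lower, where 35.1% and 31.3% of all genes were. Pdk1 was 1.70-fold higher (log2 0.77 ± 0.11, adjusted p = 2.01e-07, edgeR), beside a median of 0.31 for chromosome 2. Ldha (log2 0.39 ± 0.07) and Ldhb (log2 0.22 ± 0.07) were higher, the latter with an edgeR adjusted p of 0.139 without replicate 3 of TβRII flox/flox PT cells with H2O2. Slc16a1 was lower, at 3723, 3365 and 3613 in TβRII flox/flox and 2296, 2303 and 2638 in TβRII-/- PT cells (log2 -0.57 ± 0.07, adjusted p = 1.22e-08, edgeR). The glucose transporter Slc2a1 was lower too (log2 -0.23 ± 0.07, adjusted p = 0.00279, edgeR). Pgm1 (log2 0.29 ± 0.07), Gys1 (log2 0.25 ± 0.07) and Ddit4 (log2 0.41 ± 0.08) were higher, and Egln1 was lower (log2 -0.24 ± 0.06).

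Hif1a with H2O2 was at 2967, 2719.8 and 2785 in TβRII flox/flox and 2931, 3162 and 2771 in TβRII-/- PT cells, with overlapping groups (log2 0.07 ± 0.06, adjusted p = 0.355, edgeR). Epas1 was at 21.3, 20.7 and 6.88 and 5.54, 11.8 and 12.9 (log2 -0.71 ± 0.41, adjusted p = 0.129, edgeR). Ankrd37 had 0.66 ± 0.31, adjusted p = 0.065 (edgeR) and was called when transcripts were summed (adjusted p = 0.0293) or at least 10 counts were asked of every library (adjusted p = 0.0482). Kdm3a had -0.14 ± 0.06, adjusted p = 0.0656 (edgeR), and was called as lower in 9 of 21 alternatives, with adjusted p from 0.0122 to 0.0451. These were the fits with DESeq2 size factors in edgeR, with transcripts summed, with only the groups compared, and without any 1 library of untreated controls, without replicate 1 or 3 of TβRII flox/flox PT cells with H2O2, or without replicate 3 of TβRII-/- PT cells with H2O2.

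TβRII flox/flox PT cells with H2O2 in serum-free medium had less RNA for most glycolytic enzymes than untreated ones. Ldha, Eno1, Pgk1 and Pgam1 fell most among the enzymes, by 0.89 to 0.75 on the log2 scale, while Aldoc rose 1.73-fold. Of the 35 genes 7 were higher and 19 lower than in untreated cells of the same genotype, 74.3% beside 41.6% of all genes tested (21.0% higher and 20.5% lower, edgeR, adjusted p under 0.05). The median log2 fold change was -0.43, beside 0.01 for all genes. Of the 10 genes past a fold change of 1.5 and an unadjusted p under 0.01, 9 were lower and 1 was higher, beside 7.56% of all genes (2.44% and 5.13%). These untreated libraries are also the controls of the genotype comparison above, so the 2 sets of values are not independent.

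Genes of upper and lower glycolysis fell in TβRII flox/flox PT cells. Ldha fell from 5568 ± 395 to 3013 ± 261 normalized counts (SD, n = 3; log2 -0.89 ± 0.07, adjusted p = 1.58e-12, edgeR). Eno1 fell from 5575 ± 167 to 3253 ± 128 (log2 -0.78 ± 0.06, adjusted p = 1.93e-12, edgeR). Pgk1, whose promoter window is shown above, fell from 829.7 ± 36.8 to 493 ± 35.2 (log2 -0.75 ± 0.07, adjusted p = 3.64e-10, edgeR). In each of these genes every H2O2 library lay below every untreated one. Pgam1 (-0.75 ± 0.07), Gapdh (-0.69 ± 0.06), Aldoa (-0.69 ± 0.06), Pdk1 (-0.67 ± 0.11), Pfkl (-0.66 ± 0.06), Pkm (-0.57 ± 0.07), Tpi1 (-0.55 ± 0.07), Pfkfb3 (-0.54 ± 0.08), Hk2 (-0.50 ± 0.08), Hk1 (-0.48 ± 0.06), Slc2a1 (-0.43 ± 0.07) and Gpi1 (-0.39 ± 0.06) also fell on the log2 scale. Outside glycolysis, Egln1 (-0.41 ± 0.06), Pgm1 (-0.28 ± 0.07), Gys1 (-0.25 ± 0.07) and Ankrd37 (-0.95 ± 0.31) fell. The call for Ankrd37 was lost in edgeR without replicate 2 or 3 of the untreated group (adjusted p = 0.0596 and 0.0686) and without replicate 3 of the H2O2 group (adjusted p = 0.053).

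A smaller set rose in TβRII flox/flox PT cells. Aldoc rose from 99.9, 92.4 and 114 to 181, 182 and 167, 1.73-fold and without overlap (log2 0.79 ± 0.13, adjusted p = 1.58e-05, edgeR). Ndrg1 (0.47 ± 0.06), Slc16a1 (0.39 ± 0.07), Eno2 (0.39 ± 0.07) and Kdm3a (0.31 ± 0.07) rose on the log2 scale. Pfkfb4 (0.41 ± 0.15, adjusted p = 0.0309) and Pfkfb2 (0.24 ± 0.10, adjusted p = 0.0485) passed edgeR's test narrowly, and the groups of Pfkfb2 overlapped. Both calls were lost in DESeq2, with adjusted p of 0.0598 for Pfkfb4 and 0.0787 for Pfkfb2, and in an edgeR fit of only the groups compared (0.0534 and 0.059). Pfkfb4 was also lost in edgeR without replicate 1 or 3 of the untreated group or replicate 1 or 2 of the H2O2 group (adjusted p from 0.0669 to 0.115). Pfkfb2 was lost without any 1 of 6 libraries (replicates 2 and 3 untreated and 2 with H2O2 of TβRII flox/flox, 2 untreated and 1 and 3 with H2O2 of TβRII-/- PT cells) and with the replicate number as a block, with adjusted p up to 0.283.

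The HIF subunits of TβRII flox/flox PT cells did not pass the test with H2O2. Hif1a had a log2 fold change of -0.15 ± 0.06, adjusted p = 0.051 in edgeR, with every H2O2 library below every untreated one, and it was called without replicate 2 of the untreated group (adjusted p = 0.0451), without replicate 1 of the H2O2 group (adjusted p = 0.0411) and with no filter on low counts (adjusted p = 0.0442). Epas1 had 0.56 ± 0.42. Slc16a3 and Egln3, already low, had -0.82 ± 0.43 and -0.76 ± 0.40 with overlapping groups, and Slc16a3 passed when transcripts were summed (edgeR adjusted p = 0.0243). Pfkm (0.13 ± 0.06, adjusted p = 0.0444 when transcripts were summed), Pfkp (0.01 ± 0.09), Ldhb (0.14 ± 0.07, adjusted p = 0.0204 without replicate 3 of the H2O2 group) and Ddit4 (-0.18 ± 0.08) were not called in edgeR. Adm was at no more than 3 counts in all 6 libraries and is not compared.

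TβRII-/- PT cells with H2O2 had less RNA for lower glycolysis other than Eno2, and less for Slc16a3 and Egln3, the genes that stood highest in the untreated genotype comparison. Hk1 and Hk2 did not pass the test, and Aldoc rose 2.09-fold. Of the 35 genes 8 were higher and 15 lower than in untreated TβRII-/- PT cells, 65.7% beside 39.6% of all genes tested (20.5% higher and 19.1% lower, edgeR, adjusted p under 0.05). The median log2 fold change was -0.12, beside 0.02 for all genes. Past a fold change of 1.5 and an unadjusted p under 0.01 were 9 lower genes and 1 higher gene, beside 7.77% of all genes (3.52% and 4.25%). Slc16a3 fell most, from 311, 289 and 248 to 111, 98.3 and 131 (log2 -1.32 ± 0.13, adjusted p = 2.52e-09, edgeR). Egln3 fell from 234, 206 and 221 to 117, 111 and 117 (log2 -0.94 ± 0.13, adjusted p = 5.48e-07, edgeR). Every TβRII-/- library was still above every TβRII flox/flox library for both genes. Ankrd37 fell to 24.9, 18.9 and 23.9 (log2 -0.99 ± 0.25, adjusted p = 0.00202, edgeR).

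Of lower glycolysis, 5 of 6 genes fell in TβRII-/- PT cells, as did Ldha, where 19.1% of all genes tested fell. Ldha fell to 3953 ± 109 normalized counts (SD, n = 3; log2 -0.85 ± 0.06, adjusted p = 3.71e-12, edgeR), Eno1 to 3598 ± 106 (log2 -0.71 ± 0.06) and Pgk1 to 654 ± 13.1 (log2 -0.67 ± 0.07). Pfkfb3 (-0.79 ± 0.07), Pgam1 (-0.74 ± 0.07), Gapdh (-0.59 ± 0.06), Pfkl (-0.56 ± 0.06) and Slc2a1 (-0.54 ± 0.07) fell on the log2 scale, and Tpi1 (-0.36 ± 0.07), Pkm (-0.32 ± 0.07), Pdk1 (-0.32 ± 0.10) and Aldoa (-0.30 ± 0.06) fell by less. Aldoc rose from 84.7, 80.4 and 102 to 165, 200.5 and 193, 2.09-fold and without overlap (log2 1.06 ± 0.13, adjusted p = 8.77e-08, edgeR). Pfkfb4 (0.51 ± 0.13), Pfkm (0.36 ± 0.06), Ndrg1 (0.34 ± 0.06), Eno2 (0.30 ± 0.07) and Ldhb (0.24 ± 0.07) rose.

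The rises of Pfkp (0.19 ± 0.07, adjusted p = 0.0423) and Kdm3a (0.17 ± 0.07, adjusted p = 0.0412) in TβRII-/- PT cells were near the threshold in edgeR. Pfkp lost its call without any 1 library other than replicates 2 and 3 of untreated controls, with adjusted p from 0.0544 to 0.179, in DESeq2 (adjusted p = 0.083), with the replicate number as a block (adjusted p = 0.0514) and in both fits that used transcripts otherwise. Kdm3a, with overlapping groups, lost its call without any 1 library other than replicate 3 untreated of either genotype and replicate 1 of TβRII-/- PT cells with H2O2, with adjusted p from 0.056 to 0.296, in DESeq2 (adjusted p = 0.0653) and in both fits that used transcripts otherwise. Hk1, Hk2, Gpi1, Pfkfb2, Slc16a1, Hif1a, Epas1, Egln1, Ddit4, Adm, Pgm1 and Gys1 did not pass, with log2 fold changes of -0.02 ± 0.06 for Hk1, -0.02 ± 0.07 for Hk2, 0.03 ± 0.06 for Hif1a and -0.26 ± 0.41 for Adm. Gpi1 (-0.12 ± 0.06) passed without replicate 3 of untreated controls (edgeR adjusted p = 0.0367) and in a fit of only the groups compared (adjusted p = 0.021).

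**Figure D4:**
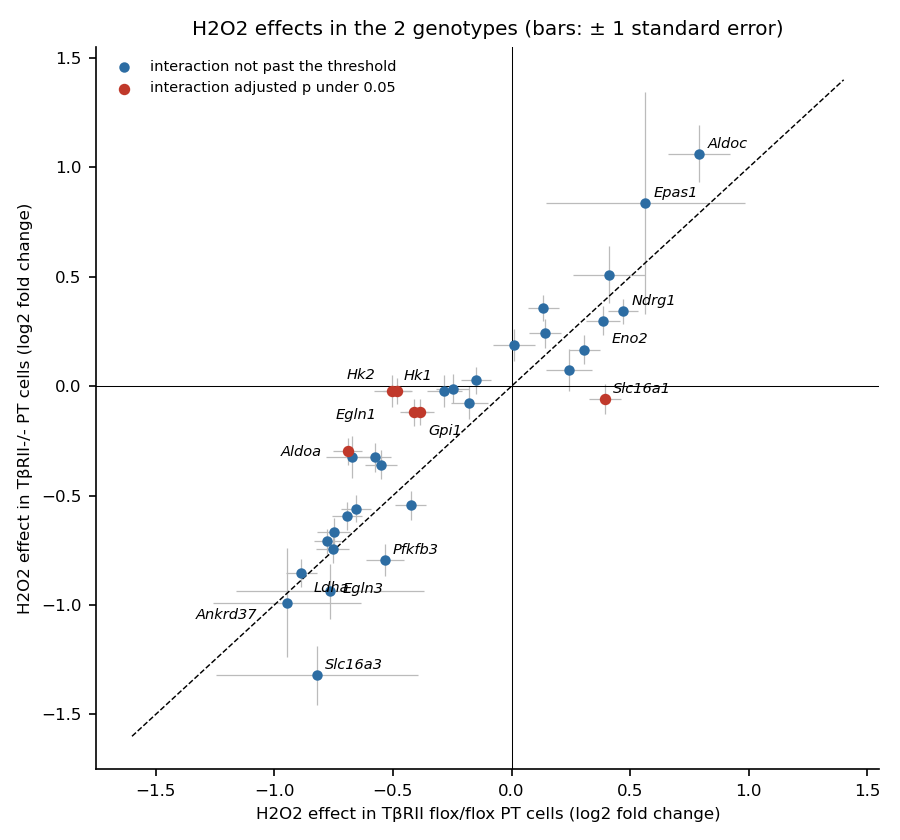
log2 fold change with H2O2 in TβRII flox/flox (x axis) and TβRII-/- PT cells (y axis) for 34 genes, with bars of ± 1 SE and a dashed line of equal effects; red points are the 6 genes whose effects differed between genotypes at an adjusted p under 0.05. Hk1 and Hk2 sit near 0 on the y axis and near -0.5 on the x axis, and Slc16a1 is the only red point with a rise in TβRII flox/flox PT cells.

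The effect of H2O2 differed between the genotypes, by edgeR's interaction term, for 6 of the 35 genes, 17.1% beside 10.2% of all genes tested. Of these, 5 had a higher and 1 a lower log2 fold change in TβRII-/- PT cells, where 3.90% and 6.28% of all genes did. The hexokinases had the largest differences. Hk1 fell by 0.48 on the log2 scale in TβRII flox/flox PT cells and had -0.02 ± 0.06 in TβRII-/- PT cells, a difference of 0.46 ± 0.08, adjusted p = 0.000433 (edgeR). Hk2 fell by 0.50 on the log2 scale and had -0.02 ± 0.07, a difference of 0.48 ± 0.11, adjusted p = 0.00367 (edgeR). Aldoa fell in both genotypes, and less in TβRII-/- PT cells (difference 0.39 ± 0.09, adjusted p = 0.00302, edgeR). Slc16a1 rose in TβRII flox/flox PT cells and had -0.06 ± 0.07 in TβRII-/- PT cells (difference -0.45 ± 0.10, adjusted p = 0.00237, edgeR). Gpi1 (difference 0.27 ± 0.09, adjusted p = 0.0384) and Egln1 (difference 0.29 ± 0.09, adjusted p = 0.0317) were close to the threshold in edgeR. Gpi1 lost its call without any 1 of 9 libraries (replicates 2 and 3 of both TβRII flox/flox groups, 1 and 2 of untreated and all 3 of H2O2-treated TβRII-/- PT cells), with the replicate number as a block (adjusted p = 0.0503) and in both fits that used transcripts otherwise, with adjusted p up to 0.183. Egln1 lost its call without any 1 of 8 libraries (replicates 2 and 3 of both TβRII flox/flox groups, 1 and 3 of untreated and 1 and 2 of H2O2-treated TβRII-/- PT cells) and in both of those fits, with adjusted p up to 0.174. Both were lost together, leaving 3 genes with a higher effect, without replicate 2 or 3 of untreated TβRII flox/flox, replicate 1 of untreated TβRII-/-, replicate 2 or 3 of H2O2-treated TβRII flox/flox or replicate 1 or 2 of H2O2-treated TβRII-/- PT cells. Without replicate 1 of untreated or replicate 3 of H2O2-treated TβRII flox/flox PT cells, Pfkfb3 joined Slc16a1 and 2 genes had a lower effect, where the main difference for Pfkfb3 was -0.26 ± 0.11, adjusted p = 0.133 (edgeR). For the 29 other genes the test does not show equal effects. The 95% interval of the difference was -0.15 to 0.21 for Ldha, -0.09 to 0.23 for Eno1, -1.43 to 0.43 for Slc16a3 and -1.07 to 0.72 for Egln3. None of the 6 differences reached 0.58 on the log2 scale, and 0 genes passed with the fold limit of 1.5 at an unadjusted p under 0.01, where 2.75% of all genes did (0.809% higher and 1.94% lower).

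Summed over the 17 enzymes from hexokinase to lactate dehydrogenase, the share of all gene counts was 0.421% ± 0.0271 in untreated TβRII flox/flox and 0.533% ± 0.0109 in TβRII-/- PT cells without it (SD, n = 3). With H2O2 it was 0.281% ± 0.0140 and 0.429% ± 0.00742. The lowest TβRII-/- library was above the highest TβRII flox/flox library in each condition, and TβRII-/- libraries with H2O2, at 0.422% to 0.437%, lay within the range of 0.401% to 0.452% of untreated TβRII flox/flox libraries. That overlap rested on Pkm, since without it TβRII-/- libraries with H2O2, at 0.277% to 0.287%, lay above the 0.243% to 0.273% of untreated TβRII flox/flox libraries. Without Gapdh and Pkm the shares were 0.213% ± 0.0140 and 0.288% ± 0.00149 untreated and 0.145% ± 0.00841 and 0.237% ± 0.00284 with H2O2.

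Per kilobase of transcript, the level of Pkm was the highest of these genes in untreated controls, at 12210.4 ± 596 normalized counts per kilobase (SD, n = 3). Tpi1 followed at 3981 ± 309, Aldoa at 3626 ± 241 and Ldha at 3153 ± 224. The libraries of Tpi1 and Aldoa overlapped in this level, and so did those of Aldoa and Ldha and those of Eno1 (2432 ± 72.9) and Gapdh (2291 ± 101). The level of Gapdh was divided by 3289 bases, the length of the transcript annotated as a retained intron. A shorter transcript would give a higher level, so the rank of Gapdh is uncertain. At the other end, Egln3 (4.26 ± 1.19), Slc16a3 (2.69 ± 0.860) and Epas1 (2.02 ± 0.575) each overlapped the next lower gene, which for Epas1 was Car9 (1.60 ± 0.510). Adm (0.506 ± 0.439) lay lowest, without overlap with Car9. In untreated TβRII-/- PT cells Ndrg1 reached 1035 ± 46.3 per kilobase, above Hk1 at 722 ± 39.9, whereas in TβRII flox/flox PT cells it was below Hk1, at 348 ± 13.8 beside 442 ± 7.08.

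Isozyme shares, taken as each form's part of the summed level per kilobase at 1 step, moved with the genotype and with H2O2. The sums took in only forms among the genes described above. Forms on the separate list of other genes, introduced below, were left out. Hk1 made up 84.9% ± 1.01 of the hexokinase level in untreated TβRII flox/flox and 90.5% ± 0.384 in TβRII-/- PT cells without it (SD, n = 3), and 85.0% ± 1.20 and 90.5% ± 0.875 with H2O2. This share differed between the genotypes, and its means with and without H2O2 lay within 1 SD. Pfkp made up 13.4% ± 1.55 and 23.1% ± 0.196 of the phosphofructokinase level untreated and 16.2% ± 0.338 and 26.7% ± 0.719 with H2O2, while Pfkl went from 54.4% ± 1.20 and 43.6% ± 0.905 to 41.4% ± 1.91 and 30.0% ± 0.921. Eno2 made up 10.6% ± 1.08 and 16.8% ± 0.616 of the enolase level untreated and 21.1% ± 1.35 and 28.9% ± 0.928 with H2O2. The share of Eno2 was lowest in untreated controls and highest in TβRII-/- PT cells with H2O2. A further enolase, Eno3, was left out of that sum. It was 2.75-fold higher in untreated TβRII-/- than in untreated TβRII flox/flox PT cells (log2 1.46 ± 0.12, adjusted p = 1.86e-12, edgeR). Its normalized counts were 111 ± 16.1 in the controls and 305 ± 22.1 in TβRII-/- PT cells (SD, n = 3). With H2O2 it was 2.57-fold higher (log2 1.36 ± 0.13, adjusted p = 8.03e-11, edgeR). Ldhb made up 20.9% ± 1.29 and 18.2% ± 0.952 of the lactate dehydrogenase level untreated and 34.8% ± 1.69 and 32.3% ± 0.866 with H2O2, which followed the treatment more than the genotype. Slc16a3 was 0.452% ± 0.141 of the level of Slc16a1 and Slc16a3 together in untreated TβRII flox/flox and 9.89% ± 0.211 in untreated TβRII-/- PT cells, and 0.197% ± 0.0970 and 4.39% ± 0.334 with H2O2. Even where it was highest, Slc16a3 was the minor form of the 2 transporters at the RNA level. These shares are descriptions without a test.

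**Figure D5:**
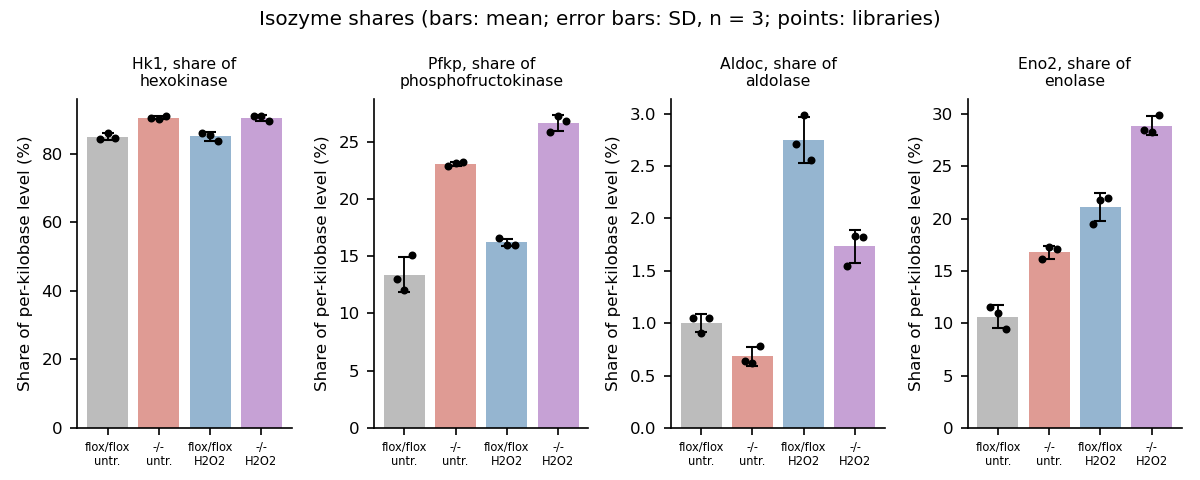
Share of 1 isozyme in the summed level per kilobase of its step (y axes, percent, starting at 0) in the 4 groups. Forms on the list of other genes are left out of the sums. Bars are means, error bars SD (n = 3) and points libraries. Hk1 and Pfkp are higher in TβRII-/- PT cells with and without H2O2, the share of Aldoc rises with H2O2 and is lower in TβRII-/- PT cells, and that of Eno2 rises with both.

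A list of 56 other genes of glucose, pyruvate, glycogen and HIF pathways, of which 45 were tested, was counted in the same fits, beside the background of all genes. Between the untreated genotypes 22 were higher and 14 lower in TβRII-/- PT cells, where 33.3% and 31.4% of all genes were, and with H2O2 24 were higher and 13 lower, where 35.1% and 31.3% were, counts that were not tested against those of the 35 genes above. Among the lower ones were P4ha1, a collagen prolyl 4-hydroxylase subunit induced by HIF, at 8468, 8039 and 7035 and 3683, 3723 and 3315 (log2 -1.13 ± 0.07, adjusted p = 5.61e-16, edgeR), and Bhlhe40, a HIF-induced transcriptional repressor, at 1843, 1690.3 and 1917 and 679.7, 615 and 731 (log2 -1.43 ± 0.07, adjusted p = 8.87e-18, edgeR). Both genes had their higher level in the controls, opposite to Slc16a3 and Egln3. The list was mixed. Mxi1 (log2 1.28 ± 0.07), Gbe1 (0.88 ± 0.07), Fam162a (0.76 ± 0.08) and Bnip3l (0.44 ± 0.07) were higher in untreated TβRII-/- PT cells. Ero1a (-0.50 ± 0.07) and Vegfa (-0.29 ± 0.07) were lower. The glucose transporter of the brush border, Slc5a2 (SGLT2), was at 18.9, 18.9 and 6.45 in TβRII flox/flox and at 0 in all 3 untreated TβRII-/- libraries, at least 4.92-fold lower against 3 normalized counts per library (edgeR adjusted p = 4.02e-06). Fbp2, a fructose bisphosphatase, was at 16.7, 23.2 and 19.1 in untreated TβRII-/- PT cells beside 1 read in all 3 control libraries together, while Fbp1 was at 0 in every library. The ratio of the groups for Fbp2 was 55.0 (exact 95% binomial interval for counting error 9.49 to 2207). Among the glucose transporters, Slc2a3 (GLUT3) was at 3.16, 3.34 and 2.15 in untreated TβRII flox/flox and 28.2, 18.4 and 24.9 in TβRII-/- PT cells (7.95-fold higher, log2 2.99 ± 0.50, adjusted p = 4.81e-06, edgeR). With H2O2 Slc2a3 was at 1.01, 4.13 and 1.15 and 12.9, 18.1 and 5.97 (log2 2.51 ± 0.60, adjusted p = 0.000451, edgeR). Slc2a2 was lower in TβRII-/- PT cells without H2O2 (log2 -0.43 ± 0.19, adjusted p = 0.0429, edgeR) and with H2O2 (log2 -0.83 ± 0.245, adjusted p = 0.00349, edgeR).

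With H2O2, 4 of these 45 genes were higher and 18 lower in TβRII flox/flox PT cells, and 9 were higher and 19 lower in TβRII-/- PT cells. Over all genes 21.0% and 20.5% were called in the former and 20.5% and 19.1% in the latter. Hif3a, whose product competes with the other HIF α subunits, fell most in both. It was at 1454, 1281 and 1373 in untreated and 123, 138 and 171 in H2O2-treated TβRII flox/flox PT cells (log2 -3.26 ± 0.09, adjusted p = 6.17e-23, edgeR). In TβRII-/- PT cells it was at 1130.5, 1101 and 1252 and 209.5, 215 and 229 (log2 -2.42 ± 0.08, adjusted p = 1.32e-20, edgeR). The fall was smaller in TβRII-/- PT cells by 0.84 ± 0.13 on the log2 scale (interaction, edgeR adjusted p = 4.54e-05). Slc2a2 (GLUT2), the transporter that passes glucose to the blood, fell in both genotypes (log2 -1.06 ± 0.20 and -1.46 ± 0.22). Pdk2, another pyruvate dehydrogenase kinase, rose in TβRII-/- PT cells from 229, 236 and 243 to 379, 386 and 348 (log2 0.65 ± 0.09, adjusted p = 5.94e-07, edgeR) and was at 159, 154 and 151 and 166, 161 and 175 in TβRII flox/flox PT cells (log2 0.12 ± 0.11). The effects on Pdk2 differed between the genotypes by 0.54 ± 0.14 (interaction, edgeR adjusted p = 0.0118). In all, the interaction was past the threshold for 9 of the 45 genes, 5 with a higher and 4 with a lower effect in TβRII-/- PT cells, where 10.2% of all genes were called (3.90% higher and 6.28% lower).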

How the data were processed

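Strand-specific mRNA libraries (TruSeq Stranded mRNA) were sequenced, and per the study's methods reads were trimmed with fastp, aligned by STAR (genome GRCm38.p6, annotation GENCODE M23) and counted by featureCounts at the gene level. Versions of fastp and STAR are not given in the sources used here. The counts the authors deposited are instead raw reads per transcript, by their identifiers, with no normalization, for 106332 transcripts in 12 libraries, with totals of 51387170 to 69231661. How reads that match several places were treated is not given in the sources used here.

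Transcripts were matched by identifier to gene symbols of GENCODE M39 (104820 matched, and the 1512 others held 1.22% to 1.28% of counts). The design had assumed 1 count per gene, so each gene was given the count of the transcript with the highest total. Because these transcripts overlap, a read can count for several. Genes were filtered with filterByExpr, scaled by TMM and fitted with glmQLFit and glmQLFTest of edgeR 4.0.16 (limma 3.58.1, R 4.3.3) in a model with 1 mean for each of the 4 groups. The contrasts were the genotype without and with H2O2, H2O2 within each genotype and the interaction, with Benjamini-Hochberg adjustment over 12971 genes. The SE is the log2 fold change divided by the square root of F, and 95% intervals use a normal approximation. The scripts were tested on simulated data. Intervals on reads cover counting error only, since no molecular identifiers are described.

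Groups came from the labels, and 1 title (replicate 3 of the untreated controls) abbreviates the group differently from its fellows. The labels do not say whether replicates were separate cultures, so p-values measure the spread between these libraries, which may be technical. The 36 genes, the list of 56 other genes and the marker lists were chosen with earlier results of these data known. Every library's value is given for genes past a log2 fold change of 1 and an adjusted p of 0.05 in a pairwise contrast, and for Hif1a, Epas1 and Tgfbr2. Others were added where a result turned on them, after their values were seen. Some results on the list of other genes are not reported here. Alternatives were DESeq2 1.42.0, its size factors in edgeR, other filters, summed or separate transcripts, no mtDNA-encoded genes, only the groups compared, the replicate number as a block, each library left out, and limits of an unadjusted p under 0.01 with a fold change of 1.5.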

Additional observations from a re-analysis of the deposited data

Results flagged for a closer look

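Of the 35 genes tested, 6 had an effect of H2O2 that differed between the genotypes by edgeR's interaction term at an adjusted p under 0.05. That was 17.1%, beside 10.2% of all genes tested. The H2O2 effect in TβRII-/- PT cells minus that in TβRII flox/flox PT cells, on the log2 scale, was 0.46 ± 0.08 for Hk1 and 0.48 ± 0.11 for Hk2, the hexokinases, both of which fell in TβRII flox/flox PT cells and did not pass the test in TβRII-/- PT cells. It was 0.39 ± 0.09 for the aldolase Aldoa and 0.27 ± 0.09 for the isomerase Gpi1. It was 0.29 ± 0.09 for the prolyl hydroxylase Egln1 and -0.45 ± 0.10 for the lactate transporter Slc16a1, which rose in TβRII flox/flox PT cells alone at this threshold.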

How the results depend on the processing

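Values depended on the processing as follows, over up to 21 alternatives per comparison. Under the limits of an unadjusted p under 0.01 and a fold change of at least 1.5, the number of the 35 genes that differed was 10 between the untreated genotypes (10 higher, 0 lower), 13 between the genotypes with H2O2 (13 and 0), 10 with H2O2 in TβRII flox/flox (1 and 9), 10 with H2O2 in TβRII-/- PT cells (1 and 9) and 0 for the interaction (0 and 0). Over all genes tested the shares were 27.0%, 29.8%, 7.56%, 7.77% and 2.75% in the same order. Between the untreated genotypes 2 genes were lower in DESeq2, with no filter on low counts and with transcripts summed, where Car9 was tested, and for the interaction 3 had a higher effect with transcripts summed and with each transcript as a feature. Leaving out 1 library at a time gave 20 to 23 genes between the untreated genotypes (19 to 20 higher, 1 to 3 lower), 27 to 28 with H2O2 (23 to 25 and 3 to 5), 23 to 26 for H2O2 in TβRII flox/flox (5 to 8 and 18 to 20), 21 to 24 in TβRII-/- PT cells (6 to 8 and 15 to 16) and 4 to 7 for the interaction (3 to 6 and 1 to 2). Of the log2 fold changes of the 35 genes in the 4 pairwise comparisons and of the 6 called interactions, 14 turned direction in at least 1 alternative, and none of these was called. Between the untreated genotypes Pfkl became -0.034 with transcripts summed, Pkm -0.015 with transcripts summed and Kdm3a -0.0011 with no filter and -0.011 with transcripts summed. With 1 library left out, Pfkfb2 ran from -0.019 to 0.17, Pkm from -0.036 to 0.042, Kdm3a from -0.041 to 0.031, Pgm1 from -0.025 to 0.053 and Gys1 from -0.020 to 0.053 there. Pfkp ran from -0.077 to 0.12 with H2O2 in TβRII flox/flox PT cells. With H2O2 in TβRII-/- PT cells Hk1 ran from -0.063 to 0.016, Hk2 from -0.089 to 0.019, Hif1a from -0.024 to 0.072, Ddit4 from -0.12 to 0.0040, Adm from -0.46 to 0.036, Pgm1 from -0.054 to 0.028 and Gys1 from -0.054 to 0.014. The cause was not tested, and for the interactions of the 29 other genes the alternatives gave counts of calls only. Of all log2 fold changes that were tabulated under the alternatives, 2904 kept their direction and their side of the threshold, 81 lost and 23 gained a call, and 30 turned direction. The 18 pairs of libraries with the same replicate number had correlations of -0.10 to 0.06 between their deviations from the group means, with 0 over 0.1, so the number does not pair the libraries. With the replicate number as a block 21, 28, 25, 22 and 5 genes were called in the 5 comparisons in the order above. Other scalings moved the median of all genes by less than 0.04 on the log2 scale. With 3 libraries a group and 0 to 4 reads for Car9, 0 to 16 for Adm and few for Epas1, differences in these genes were limited by depth.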
